A study of Mus musculus with 9 samples.

Results

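The mRNAs of the protein phosphatase subunits were taken as the 77 protein-coding genes whose symbols begin with *Ppp1* to *Ppp6*, of 21250 protein-coding genes with rows in the deposited count table. They comprised 12 catalytic subunits, with symbols of the form *Ppp1c* to *Ppp6c*, and 65 regulatory subunits. A total of 76 of them had rows, and 71 had at least 0.5 CPM (counts scaled to a common library size) in at least 3 libraries and were tested, 11 catalytic and 60 regulatory. *Ppp1ccb*, a retrogene copy of *Ppp1cc*, had no rows and was not analysed here. *Ppp1r14bl*, *Ppp1r14d*, *Ppp1r17*, *Ppp1r27* and *Ppp1r3a* were below the threshold, with at most 29 counts each over the 9 libraries together.

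The study asked which mRNAs are bound in the cytoplasm by a CELF2 protein that has lost its normal nuclear location. In RNA immunoprecipitation sequencing (RIP-seq), the RNA attached to an antibody-captured protein is read out by sequencing. All 9 libraries were prepared from cortical cytoplasm of P0 mice heterozygous for the *Celf2* KI allele (p.R493H), in 3 biological replicates per condition, namely RIP with an anti-CELF2 antibody (CELF2-KI RIP), RIP with normal rabbit IgG (IgG RIP) and input, cytoplasm that met no antibody. The controls carried the same KI allele beside a WT allele, no WT animals were part of the comparison, and the antibody is not described as telling the alleles apart. Values are CPM on library sizes scaled by the trimmed mean of M values (TMM), and they compare conditions for 1 gene, not genes with each other, because transcript lengths were not used. A gene was called higher or lower when edgeR's quasi-likelihood test across all 15263 tested genes gave a Benjamini-Hochberg FDR under 0.01 and the change was at least 2-fold. Errors of log2 fold changes are standard errors from that fit, and errors of CPM are SD over 3 libraries. Where no other scaling is named, a call or its absence in edgeR is with TMM, and in DESeq2 with its own size factors.

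Protein phosphatases of this superfamily remove phosphate from serine and threonine. A small number of catalytic subunits, those of PP1, PP2A, calcineurin (PP2B, also called PP3), PP4, PP5 and PP6, act in complexes with many regulatory subunits that choose the substrate and the place in the cell. PP1 binds a different partner in each complex, PP2A is built on a scaffold subunit that holds a variable B subunit, and calcineurin needs a calcium-binding B subunit and calmodulin. In neurons, calcineurin and PP1 are known for opposing protein kinases at synapses, and calcineurin for carrying calcium signals to NFAT transcription factors.

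In CELF2-KI RIP, 7 of the 71 tested subunit mRNAs were higher than in both controls and 6 were lower than in both. The 7 were *Ppp6c*, *Ppp1r15b*, *Ppp1r8*, *Ppp1r14c*, *Ppp1r26*, *Ppp1r3c* and *Ppp1r3d*, with 2.01-fold to 3.55-fold more than in IgG RIP. The 6 were *Ppp1ca*, *Ppp1r11*, *Ppp1r1a*, *Ppp1r15a*, *Ppp2r5d* and *Ppp1r12a*. Over all tested genes, 7.58% were higher and 9.52% lower than in both controls, so that the share of the subunits was close to the background in both directions. Over IgG RIP alone, 13 subunit mRNAs were higher and 7 lower, where 13.4% and 13.5% of all genes were called. Over input alone, 12 were higher and 9 lower, where 14.6% and 15.5% of all genes were called. These splits depended on the scaling. With library totals in place of TMM factors, 5 were higher and 13 lower over IgG RIP and 1 was higher and 18 lower over input, and with upper-quartile scaling the splits were 8 and 10 over IgG RIP and 5 and 14 over input, and with DESeq2 size factors 10 and 7 over IgG RIP and 7 and 12 over input. Without input replicate 2, 7 were higher over input and 4 higher than both controls.

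**Figure D1:**
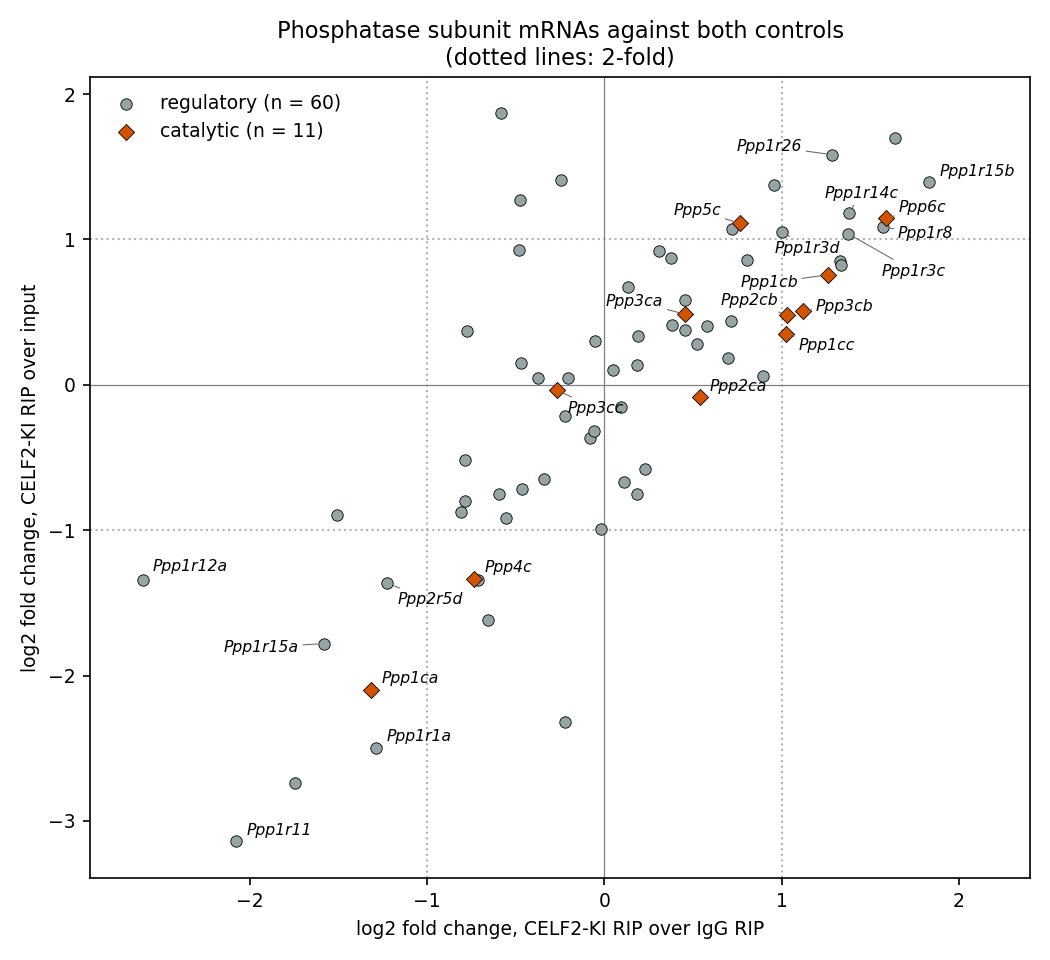
Log2 fold change, CELF2-KI RIP against IgG RIP (horizontal axis) and over input (vertical axis) for the 71 tested subunit mRNAs. Diamonds are the 11 catalytic and circles the 60 regulatory subunits, dotted lines mark 2-fold, and all catalytic subunits and all genes called against both controls are labelled. Both axes use the same CELF2-KI RIP libraries. *Ppp1ca* is the catalytic subunit lowest on both axes and *Ppp6c* the highest on both.

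The catalytic subunits had a higher median than the regulatory ones over both controls, whereas the order of their shares called over IgG RIP depended on the scaling. Of 11 catalytic mRNAs, 5 were higher than in IgG RIP (*Ppp1cb*, *Ppp1cc*, *Ppp2cb*, *Ppp3cb* and *Ppp6c*) and *Ppp1ca* was lower, with a median log2 fold change of 0.77 against -0.06 for all tested genes. Of 60 regulatory mRNAs, 8 were higher and 6 lower, with a median of 0.02, where 13.4% and 13.5% of all tested genes were called. The higher calls over IgG RIP became 3 of 11 catalytic and 7 of 60 regulatory mRNAs with DESeq2 size factors, 1 of 11 and 4 of 60 with library totals, and 1 of 11 and 7 of 60 with upper-quartile scaling, in which the catalytic share was the smaller one. *Ppp6c* alone of the catalytic subunits kept the call with upper-quartile scaling or library totals, and without input replicate 2 or without IgG RIP replicate 1 the catalytic count was 3. Over input the medians were 0.48 for catalytic and 0.15 for regulatory subunits, beside 0.19 for all tested genes. The catalytic median was above 0 in both comparisons under all 4 scalings, but with library totals it was only 0.017 over input and 0.39 over IgG RIP. The regulatory median with library totals was -0.35 over IgG RIP and -0.30 over input, beside -0.42 and -0.27 for all tested genes. A change of scaling moves all genes of a comparison by nearly the same amount and so nearly cancels in a difference of medians. The difference between the medians, catalytic minus regulatory, was 0.75 over IgG RIP and lay between 0.74 and 0.75 under all 4 scalings, which is therefore no check of it. In the individual CELF2-KI RIP libraries, each set against the mean of the control, it was 0.515, 0.775 and 0.652 over IgG RIP and 0.265, 0.505 and 0.181 over input. It was positive in each library, but smaller over input, since in IgG RIP itself the catalytic subunits were below the regulatory ones relative to input, by a difference of -0.44. With curated transcripts alone the difference over IgG RIP was 0.40. The medians rest on 11 genes and were given no test.

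Complete separation of the libraries was counted as well. All 3 CELF2-KI RIP libraries were above all 6 control libraries for 7 of 11 catalytic and 18 of 60 regulatory subunits, and 25.2% of all tested genes did so. They were below all 6 controls for 2 catalytic and 14 regulatory subunits, beside 19.9% of all tested genes.

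The mRNAs of the PP1 catalytic subunits, which are near-identical enzymes, went in opposite directions. *Ppp1ca* (PP1α, chr19:4192174-4195419 in GRCm38.p6) was at 54.2, 30.1 and 31.2 CPM in the CELF2-KI RIPs, against 82.8, 86.9 and 118 CPM in the IgG RIPs and 167, 161 and 166 CPM in the inputs. Every CELF2-KI RIP library was below every control, and IgG RIP was below input. The log2 change was -1.32 ± 0.23 over IgG RIP (edgeR FDR 6.72e-04) and -2.10 ± 0.23 over input (edgeR FDR 3.55e-05), or 2.49-fold and 4.28-fold lower. *Ppp1cb* (PP1β, the catalytic subunit of myosin phosphatase, chr5:32458848-32493713) was at 287, 289 and 237 CPM in the CELF2-KI RIPs, against 108, 97 and 135 CPM in the IgG RIPs and 162, 171 and 148 CPM in the inputs. Each CELF2-KI RIP library exceeded each control, with 1.26 ± 0.14 over IgG RIP (edgeR FDR 5.04e-05) and 0.76 ± 0.14 over input, which did not reach 2-fold. *Ppp1cc* (PP1γ, chr5:122154967-122175273) was at 164, 153 and 157 CPM in the CELF2-KI RIPs, against 70.7, 64.5 and 98.1 CPM in the IgG RIPs and 125, 120.3 and 127 CPM in the inputs. It separated from all controls too, with 1.02 ± 0.15 over IgG RIP (edgeR FDR 2.30e-04) and 0.35 ± 0.15 over input (edgeR FDR 0.058). The call of *Ppp1cc* over IgG RIP was at the 2-fold threshold and was lost without input replicate 2 (0.92), IgG RIP replicate 1 (0.95), IgG RIP replicate 2 (0.92) or CELF2-KI RIP replicate 1 (0.997). *Ppp1cc* was also under 2-fold with DESeq2 size factors (0.96), upper-quartile scaling (0.76), library totals (0.66) and curated transcripts alone (0.87). Reads of *Ppp1cc* could in part belong to its retrogene.

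**Figure D2:**
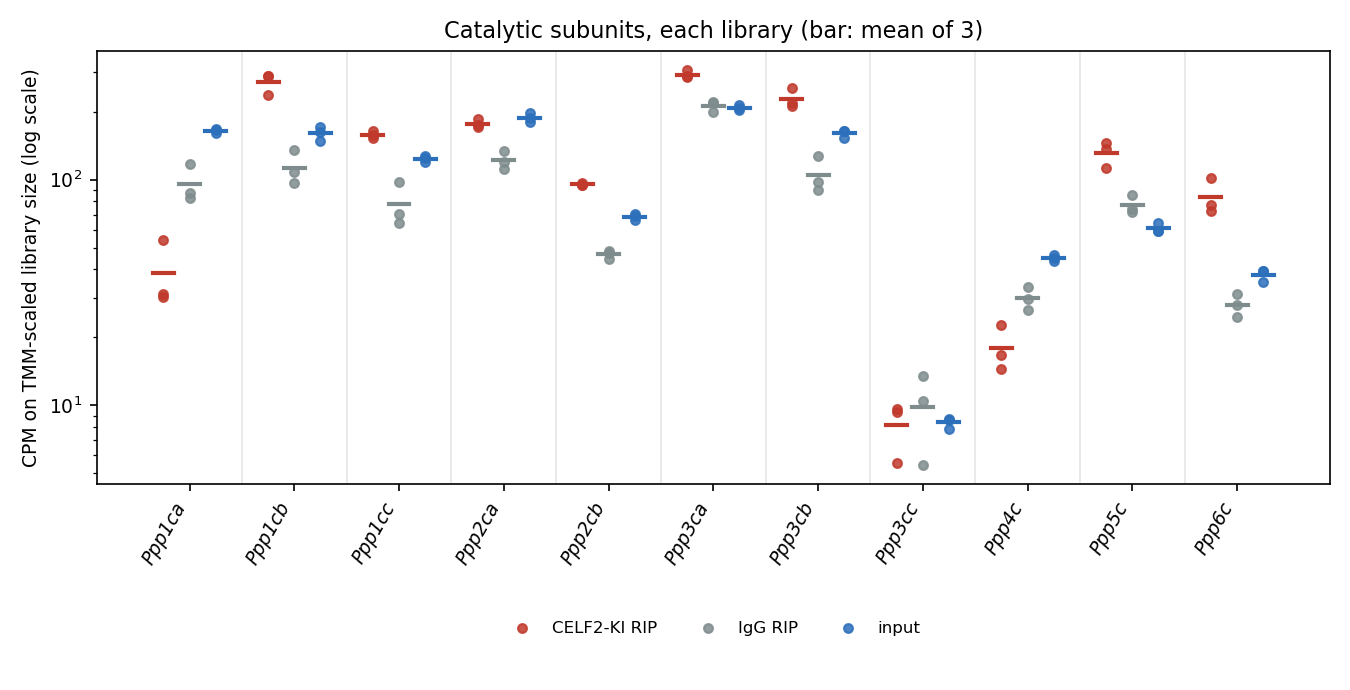
CPM on the TMM-scaled library size (vertical axis, log scale) of the 11 tested catalytic subunits in each library (3 per condition), with the mean as a bar. *Ppp1ca* and *Ppp4c* have each CELF2-KI RIP library below each control, and *Ppp1cb*, *Ppp1cc*, *Ppp2cb*, *Ppp3ca*, *Ppp3cb*, *Ppp5c* and *Ppp6c* have them above.

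The within-library ratios of these genes do not depend on the scaling. The ratio of *Ppp1cb* to *Ppp1ca* counts was 5.3, 9.58 and 7.6 in the CELF2-KI RIPs, against 1.3, 1.12 and 1.14 in the IgG RIPs and 0.972, 1.06 and 0.89 in the inputs. All CELF2-KI RIP values were several times those of the controls, which were near 1. The ratio of *Ppp1cc* to *Ppp1ca* was 4.39 ± 1.18 (SD, n = 3), 0.809 ± 0.0591 and 0.753 ± 0.00999, whereas the ratio of *Ppp1cb* to *Ppp1cc* overlapped between the CELF2-KI RIPs and the IgG RIPs (1.71 ± 0.191 and 1.47 ± 0.0808). The ratios were examined for 9 pairs of related subunits chosen after their values were seen, in 18 two-sided exact permutation tests. With 3 libraries against 3 the smallest p is 0.1, or 0.129 after Benjamini-Hochberg adjustment, and both ratios to *Ppp1ca* had that p against each control. Any pair without overlap gets this p, so these tests cannot decide.

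Of the PP2A catalytic subunits, which are nearly identical proteins, *Ppp2ca* was at 186, 174 and 171 CPM in the CELF2-KI RIPs, against 112, 120.3 and 135 CPM in the IgG RIPs and 187, 179.6 and 197 CPM in the inputs. Its CELF2-KI RIP libraries lay above IgG RIP and within the range of input, with log2 fold changes of 0.54 ± 0.10 and -0.08 ± 0.10. *Ppp2cb* was at 96.8, 94.6 and 94.5 CPM in the CELF2-KI RIPs, against 44.3, 48.5 and 47.3 CPM in the IgG RIPs and 70.2, 68.9 and 66 CPM in the inputs. Each CELF2-KI RIP library exceeded each control, with 1.03 ± 0.10 over IgG RIP (edgeR FDR 1.92e-05) and 0.48 ± 0.10 over input. Without input replicate 2 (0.93) or IgG RIP replicate 1 (0.99) *Ppp2cb* no longer reached 2-fold over IgG RIP. The same held with DESeq2 size factors (0.96), upper-quartile scaling (0.77) and library totals (0.66). With curated transcripts alone *Ppp2cb* was at 0.80 over IgG RIP, with an edgeR FDR of 0.20. The *Ppp2cb* to *Ppp2ca* ratio was 0.538 ± 0.0171 in the CELF2-KI RIPs, against 0.384 ± 0.0284 in the IgG RIPs and 0.365 ± 0.0258 in the inputs, with no overlap (exact permutation p = 0.1 against each control, adjusted 0.129).

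Calcineurin A, the catalytic subunit of calcineurin, is encoded by 3 genes. *Ppp3ca*, the main neuronal form, was at 284, 287 and 305 CPM in the CELF2-KI RIPs, against 221, 218 and 200.2 CPM in the IgG RIPs and 215, 207 and 203 CPM in the inputs. Each CELF2-KI RIP library exceeded each control, but the log2 fold changes were 0.46 ± 0.09 and 0.49 ± 0.09, short of 2-fold. *Ppp3cb* (chr14:20499364-20546573) was at 211, 255 and 219 CPM in the CELF2-KI RIPs, against 89.8, 97.6 and 127 CPM in the IgG RIPs and 164, 164 and 154 CPM in the inputs, or 1.12 ± 0.14 over IgG RIP (edgeR FDR 9.91e-05) and 0.51 ± 0.14 over input. The *Ppp3cb* to *Ppp3ca* ratio was 0.783 ± 0.0909 in the CELF2-KI RIPs, against 0.497 ± 0.122 in the IgG RIPs and 0.77 ± 0.0184 in the inputs, so that it stood apart from IgG RIP and overlapped input (exact permutation p = 1). Both depended on 1 predicted transcript model of *Ppp3cb*, XM_017315921.1, which was listed at 0 in all 6 controls. Without it the ratio was 0.638, 0.711 and 0.618 in the CELF2-KI RIPs, which overlapped IgG RIP (0.407 to 0.636) and lay below every input (0.755 to 0.791). *Ppp3cc*, the form best known from testis, had only 9.36, 5.55 and 9.64 CPM in CELF2-KI RIP, within the range of IgG RIP, and -0.27 ± 0.32 over IgG RIP. The regulatory subunit *Ppp3r1* (calcineurin B, chr11:17159298-17200380) was at 170.04, 185 and 153 CPM in the CELF2-KI RIPs, against 63.3, 63.6 and 74.4 CPM in the IgG RIPs and 100.01, 96.5 and 90.2 CPM in the inputs. It was above all controls in every CELF2-KI RIP library, at 1.34 ± 0.12 over IgG RIP (edgeR FDR 1.35e-05) and 0.83 ± 0.11 over input, while the second B subunit, *Ppp3r2*, known from testis, was below 4 CPM in every library and not called.

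Among the remaining catalytic subunits, *Ppp6c* (PP6, chr2:39194369-39226349) was the one higher than both controls. It was at 77.2, 102 and 72.8 CPM in the CELF2-KI RIPs, against 24.7, 27.9 and 31.1 CPM in the IgG RIPs and 39.4, 39.2 and 35.2 CPM in the inputs. Every CELF2-KI RIP library was above every control, with 1.59 ± 0.16 over IgG RIP (edgeR FDR 2.42e-05) and 1.15 ± 0.15 over input (edgeR FDR 1.17e-04). Without CELF2-KI RIP replicate 2, the highest of the 3, the value over input was 0.99 and the call was lost. The call over input was also lost with upper-quartile scaling (0.91), library totals (0.67) and curated transcripts alone (0.69). *Ppp4c* (PP4) was at 22.6, 14.4 and 16.7 CPM in the CELF2-KI RIPs, against 26.4, 29.5 and 33.3 CPM in the IgG RIPs and 46.4, 43.8 and 45.1 CPM in the inputs, with each CELF2-KI RIP library below each control, and the log2 change was -0.73 ± 0.18 over IgG RIP and -1.33 ± 0.17 over input (edgeR FDR 1.05e-04). *Ppp5c* (PP5, a phosphatase with its own regulatory repeats) was at 113, 145 and 137 CPM in the CELF2-KI RIPs, against 74.2, 71.7 and 85.9 CPM in the IgG RIPs and 59.1, 59.3 and 64 CPM in the inputs. It lay above all controls, with 0.77 ± 0.13 over IgG RIP and 1.11 ± 0.13 over input (edgeR FDR 4.32e-05), the latter 0.98 without input replicate 2 and then not called. That call was also lost with DESeq2 size factors (0.97), upper-quartile scaling (0.87), library totals (0.64) and curated transcripts alone (0.78).

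The regulatory subunits of PP4 and PP6 had no call in edgeR with TMM scaling or in the DESeq2 test in any of the 3 comparisons. Of all tested genes, 27.0% were called over IgG RIP in either direction, so that 5 and 3 genes are too few to show a lack of calls. With library totals, lower calls over IgG RIP among all 60 regulatory subunits were 11 in place of 6. Genes that gained a call there are not named here. Of the 5 PP4 regulators, 1 had an unadjusted edgeR p under 0.05 over IgG RIP, which was *Ppp4r2* at 0.80 ± 0.13 over IgG RIP and 0.86 ± 0.12 over input. Its libraries were at 67.1, 89.2 and 76.8 CPM in the CELF2-KI RIPs, against 44.4, 44.5 and 44.5 CPM in the IgG RIPs and 43.8, 44.6 and 40.3 CPM in the inputs, and each CELF2-KI RIP library exceeded each control. *Ppp4r3b* was uneven between replicates, with 25, 5.7 and 7.59 CPM in CELF2-KI RIP and 4.38, 35.5 and 27.7 CPM in IgG RIP, and had the largest standard error of the group (-0.81 ± 0.68). Of the 3 PP6 regulators, *Ppp6r1* was lowest at -0.79 ± 0.12 and *Ppp6r2* highest at 0.45 ± 0.14 over IgG RIP, and both had an unadjusted p under 0.05. The log2 fold changes in PP6 over IgG RIP were, catalytic against regulatory, 1.59 against -0.79 to 0.45, and the difference was not tested.

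**Figure D3:**
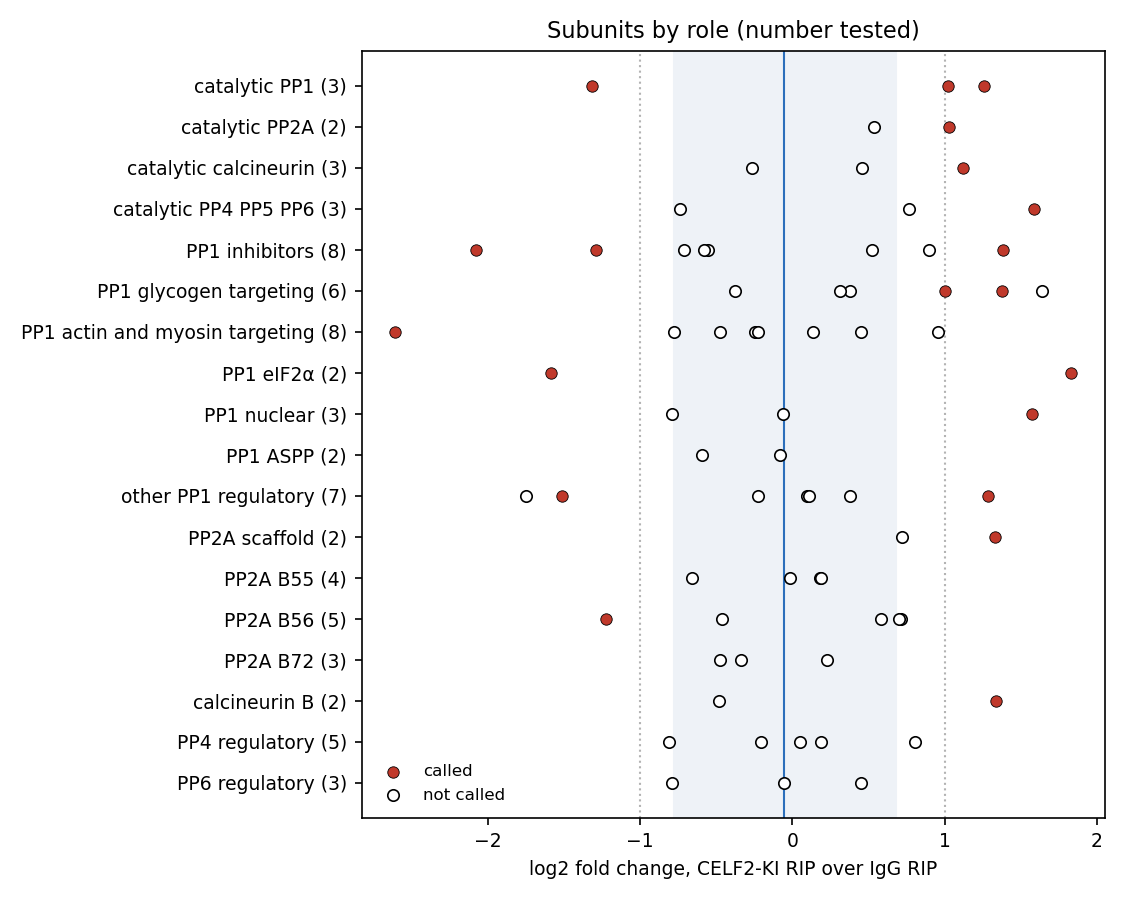
Log2 fold change, CELF2-KI RIP against IgG RIP (horizontal axis) for the 71 tested subunits, grouped by role with the number tested in parentheses. Filled points were called at FDR under 0.01 and at least 2-fold, open points were not, the shaded band holds the middle of all 15263 tested genes (between the quartiles) and the solid line their median of -0.06. The groups of PP1 ASPP, PP2A B55, PP2A B72, PP4 and PP6 regulators have open points alone. These groups are small, and 27.0% of all tested genes were called.

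Of 36 tested PP1 regulators, 11 were called over IgG RIP in either direction (30.6%), beside 27.0% of all tested genes. The pair that brings PP1 to eIF2α, and so allows translation to resume after stress, was split. *Ppp1r15b* (CReP, the constitutive form, chr1:133131166-133139800) was at 375, 593 and 397 CPM in the CELF2-KI RIPs, against 119, 119.96 and 145 CPM in the IgG RIPs and 174, 175 and 171 CPM in the inputs. Its lowest CELF2-KI RIP library was above every control, at 1.83 ± 0.17 over IgG RIP (edgeR FDR 1.92e-05) and 1.39 ± 0.17 over input (edgeR FDR 6.86e-05), the highest value over IgG RIP among the 71 subunits. *Ppp1r15a* (GADD34, the stress-induced form, chr7:45522917-45526268) was at 4.88, 4.24 and 4.46 CPM in the CELF2-KI RIPs, against 12.3, 13.9 and 14.6 CPM in the IgG RIPs and 16, 13.8 and 16.9 CPM in the inputs. Every CELF2-KI RIP library was below every control, at -1.58 ± 0.16 over IgG RIP (edgeR FDR 2.91e-05) and -1.78 ± 0.16 over input (edgeR FDR 1.29e-05). The ratio of the pair was 76.9, 140.1 and 89 in the CELF2-KI RIPs, against 9.69, 8.64 and 9.94 in the IgG RIPs and 10.9, 12.6 and 10.1 in the inputs, and it was slightly lower in IgG RIP than in input. The pair was chosen after its values were seen. Its exact permutation p was 0.1 against each control (adjusted 0.129), the smallest possible, so the test cannot decide.

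**Figure D4:**
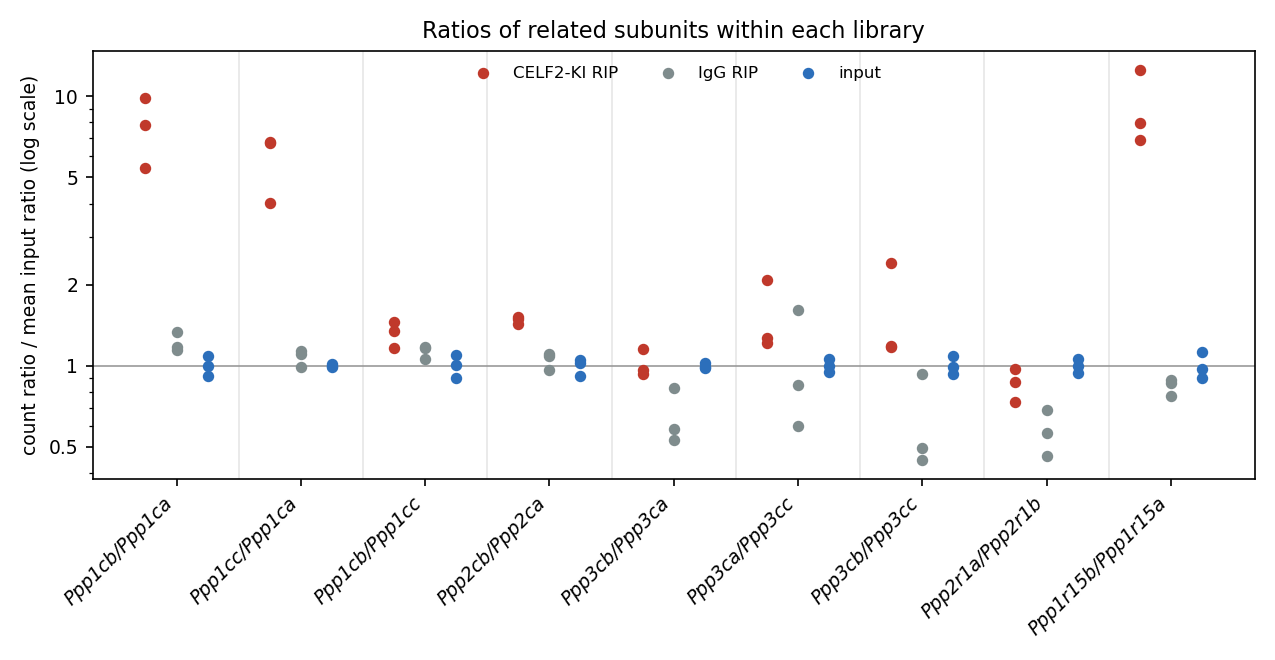
Ratios of counts of related subunits within each library, divided by the mean ratio of the 3 input libraries (vertical axis, log scale), for 9 pairs in 3 libraries per condition. The pairs *Ppp1cb*/*Ppp1ca*, *Ppp1cc*/*Ppp1ca* and *Ppp1r15b*/*Ppp1r15a* have all CELF2-KI RIP points far above the controls, and *Ppp3cb*/*Ppp3ca* has them around the input points.

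Of 8 tested PP1 inhibitor mRNAs, 1 was higher and 2 were lower than IgG RIP, and these 3 were called the same way over input. Over all tested genes, 13.4% were higher and 13.5% lower than IgG RIP, and 7.58% and 9.52% against both controls. Counts in 8 genes cannot be told from these shares. *Ppp1r14c* (KEPI, an inhibitor activated by protein kinase C, chr10:3365974-3464978) was at 92.8, 105 and 92.8 CPM in the CELF2-KI RIPs, against 35.5, 31.8 and 44.1 CPM in the IgG RIPs and 44.7, 43.7 and 39.5 CPM in the inputs and each CELF2-KI RIP library above each control, at 1.38 ± 0.14 over IgG RIP (edgeR FDR 2.81e-05) and 1.18 ± 0.14 over input. *Ppp1r11* (inhibitor-3, chr17:36948355-36951792) was at 2.88, 2.93 and 2.68 CPM in the CELF2-KI RIPs, against 9.45, 12.3 and 14.2 CPM in the IgG RIPs and 23.5, 23.3 and 28.3 CPM in the inputs. It was the subunit with the largest fall below input, -3.14 ± 0.20 (edgeR FDR 1.58e-06), and -2.08 ± 0.20 below IgG RIP (edgeR FDR 1.91e-05). *Ppp1r1a* (inhibitor-1, activated by protein kinase A, chr15:103530279-103538027) was at 7.6, 6.24 and 5.36 CPM in the CELF2-KI RIPs, against 16.9, 13.3 and 16.6 CPM in the IgG RIPs and 36.6, 33.5 and 38.4 CPM in the inputs, or -1.29 ± 0.17 and -2.50 ± 0.17. For both genes IgG RIP was itself lower than input, by -1.06 ± 0.17 and -1.21 ± 0.16, so that the 3 conditions lay in the order input, IgG RIP, CELF2-KI RIP with no overlap. *Ppp1r1b* (DARPP-32, the dopamine-regulated relative of inhibitor-1) had the same order of group means without a call, at -0.55 ± 0.16 over IgG RIP and -0.92 ± 0.16 over input. *Ppp1r14b*, whose reads may be shared with the copy *Ppp1r14bl*, was lower than input at -1.34 ± 0.20 (edgeR FDR 2.61e-04) and not called against IgG RIP (-0.71 ± 0.20).

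**Figure D5:**
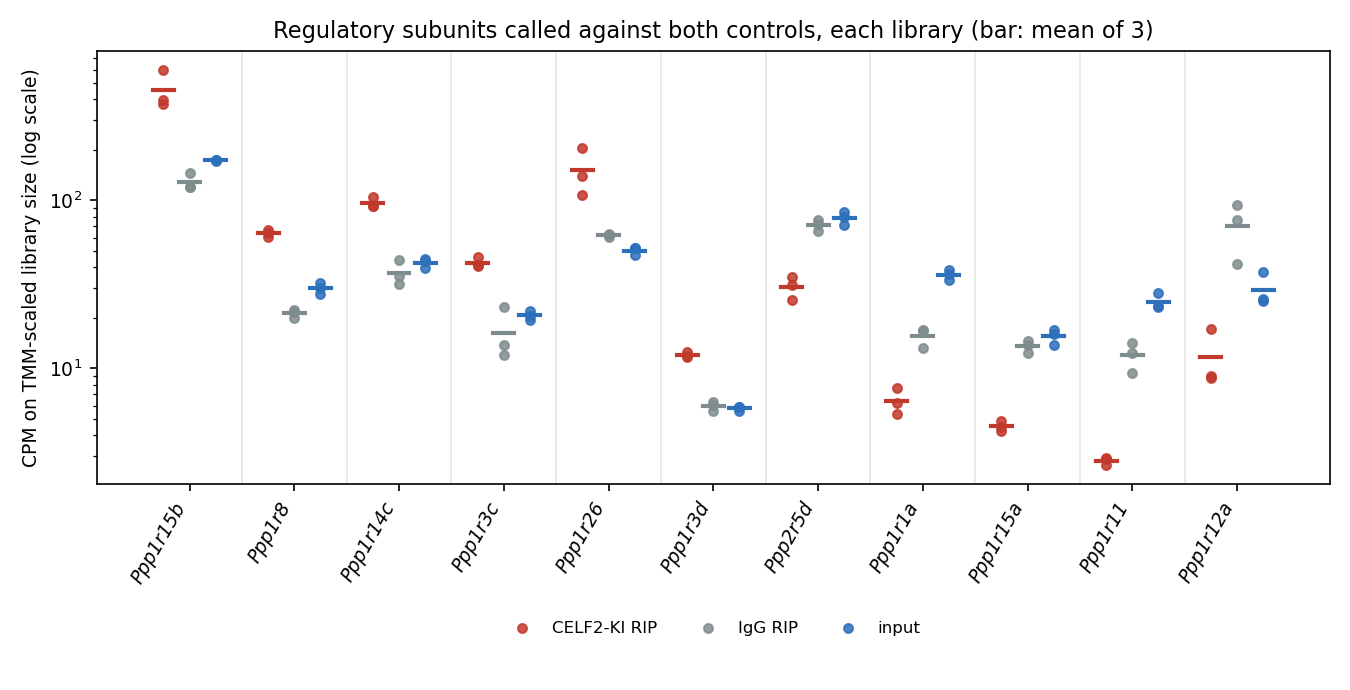
CPM on the TMM-scaled library size (vertical axis, log scale) of the 11 regulatory subunits called against both controls, in order of their log2 fold change over IgG RIP, for each library (3 per condition), with the mean as a bar. For the first 6 genes every CELF2-KI RIP point lies above every control point, and for the last 5 every one lies below.

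The glycogen-targeting subunits, which tether PP1 to glycogen and its enzymes, included 2 calls higher than both controls in 6 tested genes. None was called lower in edgeR or DESeq2, with 0 of 6 below at an unadjusted edgeR p under 0.05. Over all tested genes, 7.58% were higher and 9.52% lower than both controls, so that 6 genes are too few to show a lack of lower calls. The share of all tested genes under the unadjusted p was not counted. *Ppp1r3c* (PTG, chr19:36731731-36736604) was at 46, 41.1 and 40.4 CPM in the CELF2-KI RIPs, against 12, 13.9 and 23.2 CPM in the IgG RIPs and 22, 19.5 and 20.5 CPM in the inputs, or 1.38 ± 0.22 over IgG RIP (edgeR FDR 4.95e-04) and 1.04 ± 0.22 over input (edgeR FDR 0.00213). *Ppp1r3d* (chr2:178411206-178414463) was at 11.9, 12.5 and 11.7 CPM in the CELF2-KI RIPs, against 5.57, 6.35 and 6.09 CPM in the IgG RIPs and 5.9, 5.91 and 5.58 CPM in the inputs, or 1.005 ± 0.16 and 1.05 ± 0.15. Both separated fully from the controls but lay at the 2-fold threshold over input or IgG RIP. *Ppp1r3c* was not called over input without input replicate 2 (0.89), input replicate 3 (FDR 0.0104 in edgeR) or CELF2-KI RIP replicate 1 (0.98). *Ppp1r3d* was not called over IgG RIP without input replicate 2 (0.90), IgG RIP replicate 1 (0.95) or CELF2-KI RIP replicate 2 (0.98). With DESeq2 size factors, 0 of the 6 glycogen-targeting genes were higher than input in the DESeq2 test, and 5 of 6 were above it at an unadjusted edgeR p under 0.05. *Ppp1r3b* was highest in this group at 1.64 ± 0.65 over IgG RIP, with 4.4, 4.39 and 9.37 CPM in CELF2-KI RIP and 0.25, 2.88 and 2.8 CPM in IgG RIP, and was not called (edgeR FDR 0.053). *Ppp1r3g* was lowest at -0.37 ± 0.61.

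Subunits that target PP1 to actin and myosin gave a different picture, in which IgG RIP was often above input. *Ppp1r9a* (neurabin) was at 256, 298 and 261 CPM in the CELF2-KI RIPs, against 386, 434 and 316 CPM in the IgG RIPs and 113, 119 and 105 CPM in the inputs. Both RIPs were above input, and CELF2-KI RIP was below IgG RIP in every library. The log2 change was 1.27 ± 0.13 over input (edgeR FDR 2.63e-05), -0.48 ± 0.13 over IgG RIP and 1.75 ± 0.13 for IgG RIP over input. Only 4 of the 13 rows of *Ppp1r9a* had the accession version of the gene table. With such rows alone, both calls were lost, at 0.67 over input (edgeR FDR 0.70) and 0.72 for IgG RIP over input (edgeR FDR 0.71). *Ppp1r9b* (spinophilin, which holds PP1 in dendritic spines) was at 692, 559.7 and 689 CPM in the CELF2-KI RIPs, against 518, 646 and 604 CPM in the IgG RIPs and 394, 371 and 449.6 CPM in the inputs, at 0.13 ± 0.13 over IgG RIP with overlapping libraries and 0.68 ± 0.13 over input. *Ppp1r12b*, a myosin phosphatase targeting subunit, was 1.41 ± 0.25 over input and -0.24 ± 0.25 over IgG RIP, again with IgG RIP over input (1.65 ± 0.25), and its curated transcript NM_001081307.1 was at 0 in all 3 CELF2-KI RIPs beside 16.2, 8.68 and 19.8 CPM in the IgG RIPs and 6.03, 4.51 and 9.1 CPM in the inputs, so that the rise over input lay in its other transcript rows and was reversed with curated transcripts alone. *Ppp1r16b* (TIMAP) was highest over IgG RIP in this group, at 169.6, 199 and 207 CPM in the CELF2-KI RIPs, against 108, 99.8 and 89.1 CPM in the IgG RIPs and 71.9, 71.9 and 78.3 CPM in the inputs. Each CELF2-KI RIP library exceeded each control, at 0.95 ± 0.12 over IgG RIP, just short of 2-fold, and 1.37 ± 0.12 over input (edgeR FDR 9.88e-06).

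*Ppp1r12a* (MYPT1, the main myosin phosphatase targeting subunit, chr10:108162092-108279985) was the lowest of the 71 subunits over IgG RIP. It was at 8.72, 9.01 and 17.2 CPM in the CELF2-KI RIPs, against 42.1, 76.9 and 93.3 CPM in the IgG RIPs and 26, 25.1 and 37.3 CPM in the inputs. CELF2-KI RIP was below every control, at -2.61 ± 0.35 over IgG RIP (edgeR FDR 1.51e-04) and -1.34 ± 0.34 over input (edgeR FDR 0.00629), yet the replicates of both RIPs spread widely. The call over input was lost without input replicate 1 (edgeR FDR 0.0120), input replicate 3 (0.0273), IgG RIP replicate 2 (0.0102), CELF2-KI RIP replicate 1 (0.0286) or CELF2-KI RIP replicate 2 (0.0318). With curated transcripts alone it was not called against either control.

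Of the PP1 regulators in the nucleus, *Ppp1r8* (NIPP1, chr4:132826924-132843169) was at 60.9, 63.8 and 66.2 CPM in the CELF2-KI RIPs, against 22.3, 19.9 and 21.8 CPM in the IgG RIPs and 30, 27.7 and 32.3 CPM in the inputs. It had little spread and no overlap, with 1.57 ± 0.12 over IgG RIP (edgeR FDR 9.01e-06) and 1.08 ± 0.12 over input (edgeR FDR 3.27e-05), the latter 0.92 without input replicate 2 and then under 2-fold. The value over input was also under 2-fold with DESeq2 size factors (0.94), upper-quartile scaling (0.85) and library totals (0.62). *Ppp1r10* (PNUTS) was at -0.79 ± 0.15 over IgG RIP and -0.80 ± 0.15 over input, and *Ppp1r7* (SDS22) at -0.06 ± 0.14 and -0.32 ± 0.14, neither called. The ASPP subunits, known as partners of p53, were not called in edgeR or DESeq2, with *Ppp1r13b* at -0.60 ± 0.14 and *Ppp1r13l* at -0.08 ± 0.20 over IgG RIP, of which *Ppp1r13b* had an unadjusted p under 0.05. Among other PP1 regulators, *Ppp1r26* (chr2:28446493-28455508) was at 108, 204 and 140.3 CPM in the CELF2-KI RIPs, against 63, 62.4 and 60.4 CPM in the IgG RIPs and 51.7, 47.3 and 52 CPM in the inputs. The CELF2-KI RIP libraries spread widely but stayed above all controls, with 1.29 ± 0.20 over IgG RIP (edgeR FDR 3.18e-04) and 1.58 ± 0.20 over input (edgeR FDR 7.36e-05). It lost both calls with curated transcripts alone, and its curated transcript took 21.3% ± 4.24 of its counts in CELF2-KI RIP. *Ppp1r37* was lower than IgG RIP, at -1.51 ± 0.22 (edgeR FDR 2.33e-04), and -0.90 ± 0.22 over input.

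In PP2A, both scaffold subunits lay above the controls, but neither was called against both. *Ppp2r1a* (Aα, chr17:20945454-20965905) was at 867, 1117 and 873 CPM in the CELF2-KI RIPs, against 324, 358 and 457 CPM in the IgG RIPs and 532, 513 and 535 CPM in the inputs. Each CELF2-KI RIP library exceeded each control, with 1.33 ± 0.15 over IgG RIP (edgeR FDR 4.90e-05) and 0.85 ± 0.15 over input. Its call over IgG RIP was lost with library totals (0.95). *Ppp2r1b* (Aβ) was at 55.1, 63.2 and 66 CPM in the CELF2-KI RIPs, against 38.5, 28.8 and 44.7 CPM in the IgG RIPs and 29.3, 30.2 and 27.9 CPM in the inputs, again above all controls, with 0.72 ± 0.16 over IgG RIP and 1.08 ± 0.16 over input (edgeR FDR 2.52e-04), the latter 0.99 without input replicate 2 and then not called. That call was also lost with DESeq2 size factors (0.94), upper-quartile scaling (0.84) and library totals (0.61). The genomic span of *Ppp2r1b* overlaps that of *Sik2* over 9682 bp, and shared reads were not tested.

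The variable B subunits of PP2A had few calls, in lists of 3 to 5 genes. Of all tested genes, 27.0% were called over IgG RIP in either direction, and 14.6% were higher and 15.5% lower over input. Lists of this size are too small to show a lack of calls beside these shares. None of the 4 B55 subunits was called over IgG RIP in edgeR or DESeq2, and 1 of 4 was below it at an unadjusted p under 0.05. *Ppp2r2d* (B55δ) was at 8.24, 9.17 and 7.5 CPM in the CELF2-KI RIPs, against 12.8, 15.7 and 10.9 CPM in the IgG RIPs and 25.8, 25.8 and 25.1 CPM in the inputs, and lower than input at -1.62 ± 0.16 (edgeR FDR 2.38e-05). *Ppp2r2a* was at 0.18 ± 0.23 over IgG RIP and -0.75 ± 0.23 over input, *Ppp2r2b* at -0.02 ± 0.27 and -0.99 ± 0.26, and the neuronal *Ppp2r2c* at 0.19 ± 0.19 and 0.14 ± 0.19. Of 5 B56 subunits, *Ppp2r5d* (B56δ, chr17:46682991-46705026), mutated in a neurodevelopmental disorder, was lower than both controls. It was at 35, 31.2 and 25.5 CPM in the CELF2-KI RIPs, against 76.7, 65.8 and 72 CPM in the IgG RIPs and 79.8, 71.4 and 85.6 CPM in the inputs and each CELF2-KI RIP library below each control, at -1.22 ± 0.14 over IgG RIP (edgeR FDR 5.97e-05) and -1.37 ± 0.14 over input (edgeR FDR 2.74e-05). IgG RIP and input overlapped for this gene (-0.14 ± 0.14). *Ppp2r5a*, *Ppp2r5c* and *Ppp2r5e* lay at 0.72 ± 0.14, 0.70 ± 0.18 and 0.58 ± 0.11 over IgG RIP, short of 2-fold, and *Ppp2r5b* at -0.46 ± 0.16. Of the B72 subunits, *Ppp2r3d* was lowest at -0.47 ± 0.20 and *Ppp2r3c* highest at 0.23 ± 0.37, and none was called in edgeR or DESeq2, with 2 of 3 below IgG RIP at an unadjusted p under 0.05.

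IgG RIP was also compared with input. Of 71 subunits, 4 were higher in IgG RIP (*Ppp1r1c*, *Ppp1r9a*, *Ppp1r12b* and *Ppp1r12c*) and 2 were lower (*Ppp1r11* and *Ppp1r1a*), where 6.79% and 5.01% of all tested genes were called. None of the 11 catalytic mRNAs was called in edgeR or DESeq2, but 8 of 11 were below input at an unadjusted edgeR p under 0.05 and 1 was above. Their median was -0.55 against 0.00 for all tested genes. At that unadjusted p, 14 of 60 regulatory mRNAs were below input and 13 above. The share of all tested genes under it was not counted, so that 8 of 11 has no such background beside it. In 3 of the 8 actin- and myosin-targeting subunits IgG RIP was higher than input, with a median of 0.84 for the group. A value over IgG RIP is therefore larger than the value over input for 8 of 11 catalytic subunits, and smaller for 7 of 8 actin- and myosin-targeting ones. *Ppp1r1c* was at or below 1.23 CPM in every library, and its call was lost in 7 of 9 fits that left out a library.

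Transcript models within a gene were compared as shares of its counts. Estimated counts of overlapping transcripts share reads, so the shares are a description. The 76 genes had 246 rows, with 1 row for 28 genes and up to 17 for a single gene. In *Ppp3cb*, the predicted model XM_017315921.1 was at 29.8, 50.6 and 30.8 CPM in the CELF2-KI RIPs and listed at 0 in all 6 controls. Without that model, *Ppp3cb* had a log2 ratio of group means of 0.87 over IgG RIP and 0.25 over input, both under 2-fold. In *Ppp3ca*, the curated transcript NM_008913.5 took 44.6% ± 5.56 of the counts in CELF2-KI RIP, 56.2% ± 4.98 in IgG RIP and 13.0% ± 4.30 in input (SD, n = 3). Both RIPs were above input, with no overlap, and CELF2-KI RIP was below IgG RIP. In *Ppp1r9a*, NM_181595.3 took 73.4% ± 6.43 in CELF2-KI RIP, 48.3% ± 3.96 in IgG RIP and 46.9% ± 7.43 in input. In *Ppp1r12a*, NM_027892.2 took from 13.2% to 100% in the CELF2-KI RIPs and from 24.0% to 100% in the IgG RIPs, so that replicates of a condition disagreed on the transcript.

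Genes that act with these enzymes were counted from lists of 75 partners, of which 70 were tested. Over IgG RIP 23 were higher and 6 lower, with a median log2 fold change of 0.52, where 13.4% and 13.5% of all tested genes were called, and 18 were higher and 4 lower than both controls, where 7.58% and 9.52% were. These are descriptions of lists chosen with results of these data known, and none was tested as a list. The calcineurin partners had the highest median of the lists over IgG RIP, 0.94 beside -0.06 for all tested genes, and 0.85 over input beside 0.19, with 7 of 15 higher over IgG RIP and none lower in edgeR (0 below at an unadjusted p under 0.05), and 6 higher and 1 (*Fkbp1a*) lower over input. In DESeq2, 5 were higher and 0 lower over IgG RIP, and 3 were higher and 1 lower over input. *Rcan1*, an inhibitor of calcineurin, was at 87.2, 92.1 and 76.3 CPM in the CELF2-KI RIPs, against 22.5, 28.5 and 28.9 CPM in the IgG RIPs and 38, 37.3 and 37.8 CPM in the inputs. *Rcan3*, from the same inhibitor family, was at 145, 220.2 and 182 CPM in the CELF2-KI RIPs, against 54.7, 56.2 and 58.5 CPM in the IgG RIPs and 55.9, 58.3 and 62.1 CPM in the inputs. Both lay above all controls in every CELF2-KI RIP library, at 1.68 ± 0.13 and 1.69 ± 0.15 over IgG RIP and 1.18 ± 0.13 and 1.63 ± 0.15 over input (edgeR FDR 4.07e-05 and 1.30e-05). *Chp1*, a calcineurin B-like protein, had 1.74 ± 0.16 and 1.39 ± 0.16, *Crtc1*, a CREB coactivator dephosphorylated by calcineurin, 1.02 ± 0.11 and 1.04 ± 0.11, and the transcription factor *Nfatc2* 1.03 ± 0.25 and 1.02 ± 0.24. *Chp2* was highest over IgG RIP at 2.24 ± 0.44, from under 10 CPM in every library, and *Crtc2* lowest at -0.30 ± 0.22. *Rcan1*, *Rcan3*, *Chp1*, *Crtc1* and *Nfatc2*, the 5 called against both controls, are named after their values were seen.

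Among the metal-dependent PPM phosphatases, a family unrelated in sequence to the catalytic subunits above, 7 of 19 were higher than both controls and *Ppm1m* was lower. These are 36.8% and 5.26%, where 7.58% and 9.52% of all tested genes were called. The 7 were *Ppm1a*, *Ppm1b*, *Ppm1f*, *Ppm1h*, *Ppm1l*, *Pdp2* and *Pptc7*. *Ppm1l* was highest over IgG RIP, at 442, 561 and 545 CPM in the CELF2-KI RIPs, against 187, 181 and 195 CPM in the IgG RIPs and 234, 228 and 222 CPM in the inputs, with every CELF2-KI RIP library above every control and 1.46 ± 0.11 over IgG RIP (edgeR FDR 9.01e-06). *Pp2d1* was lowest, at -1.89 ± 0.45. The list median was 0.65 over IgG RIP and 1.05 over input, beside -0.06 and 0.19 for all tested genes. Of 19 tested partners of PP2A-type phosphatases, 4 were higher and 2 lower than both controls (21.1% and 10.5%). *Arpp19*, a PP2A-B55 inhibitor in mitosis, was highest at 110.3, 135 and 109 CPM in the CELF2-KI RIPs, against 33.7, 31.2 and 37.4 CPM in the IgG RIPs and 56.5, 53.5 and 60.7 CPM in the inputs, which is 1.79 ± 0.13 over IgG RIP and 1.05 ± 0.13 over input. *Igbp1* (α4, which binds free PP2A catalytic subunits) was lowest at 4.96, 4.31 and 3.21 CPM in the CELF2-KI RIPs, against 12.3, 8.53 and 11.9 CPM in the IgG RIPs and 21.8, 19.7 and 22.2 CPM in the inputs, which is -1.39 ± 0.21 and -2.34 ± 0.21. Of 17 tested PP1 partners outside the family, 2 were higher and 1 lower than both controls (11.8% and 5.88%), beside 7.58% and 9.52% of all tested genes. Their median was 0.10, with *Bod1* highest at 1.18 ± 0.14 and *Tprn* lowest at -1.51 ± 0.22 over IgG RIP.

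Genomic span did not separate catalytic from regulatory genes, with medians of 23.9 and 23.5 kb. The 7 genes higher than both controls had a median span of 9.02 kb and the 6 lower ones 5.59 kb, and the ranges overlapped. The spans of 11 of the 71 tested subunits overlap another protein-coding gene, by 224 bp for *Ppp1ca* with *Rad9a*, 730 bp for *Ppp1r15a* with *Tulp2*, 760 bp for *Ppp1r3d* with *Fam217b* and 136 bp for *Ppp2r5d* with *Mea1* among the genes called against both controls. Whether reads were shared there was not tested.

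The libraries had 15919600 to 20052716 estimated counts in CELF2-KI RIP, 17365561 to 28773130 in IgG RIP and 69125700 to 105116427 in input, so that the RIPs carry the larger counting error for mRNAs of a few CPM. The 45S rRNA precursor took 10.8% to 34.9% of counts in IgG RIP and under 1.76% in each other library. *Celf2* mRNA, which checks the pull-down only in part, was at 638 ± 164 CPM in CELF2-KI RIP, 233 ± 33.4 in IgG RIP and 296 ± 14.9 in input (SD, n = 3). The labels name neurons, radial glia, astrocytes, oligodendrocyte precursors, microglia and endothelial cells in the fraction, and no marker of these types, or of erythroid cells, was at 0 in all libraries. Some of the marker lists moved with the conditions. The summed level of 7 excitatory neuron markers was 1672 to 2280 CPM in CELF2-KI RIP against 894 to 1136 in the controls, and that of 5 inhibitory neuron markers 522 to 596 against 310 to 443. It was 123 to 167 against 299 to 378 for 5 radial glia markers and 92.7 to 95 against 366 to 1135 for 5 erythroid markers. For microglia it was 81.2 to 112 against 32.7 to 71.5, nearly all from *Cx3cr1* (91.8 ± 15.3 CPM in CELF2-KI RIP, 34.4 ± 5.53 in IgG RIP and 60 ± 8.34 in input), while *Aif1* was lower in CELF2-KI RIP than in every control and *P2ry12* was at 0 in both RIPs. The ranges overlapped between CELF2-KI RIP and at least 1 control for 4 general neuron markers (3308 to 3593 in CELF2-KI RIP and 3300 to 3594 in input), 4 astrocyte markers (519 to 895 and 724 to 936), 4 oligodendrocyte precursor markers (414 to 478 and 371 to 431) and 4 endothelial markers (143 to 209 and 158 to 251). Not every marker followed the sum of its list. In mean CPM in CELF2-KI RIP, IgG RIP and input, *Neurod6* (excitatory) was at 60.5, 66.6 and 94.1. *Dlx2* (inhibitory) was at 24.3, 27.4 and 56, and *Slc32a1* (inhibitory) at 137, 83.9 and 139. *Pax6* (radial glia) was at 14.8, 13.2 and 14.6. These genes were picked after their values were seen. The part of the cell type markers in the subunit values was not tested. Input was an aliquot of the cytoplasm and the RIPs came from the remainder, so these are differences in the RNA recovered, whereas for the input level of a marker alone, fewer cells of a type and less RNA per cell cannot be told apart.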

How the data were processed

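RIP-seq was performed on cortical cytoplasm of P0 heterozygous *Celf2* KI mice, with 3 libraries per condition. The authors depleted rRNA, made directional libraries, trimmed reads with fastp 0.23.4 after FastQC 0.11.9, removed residual rRNA reads with Ribodetector 0.3.1 and quantified transcripts with Kallisto 0.51.1. The authors deposited estimated counts per transcript, not scaled for depth or length. Their processing notes name mm10, DESeq2 1.46.0 and edgeR 4.4.0. The paper names Ensembl as the transcriptome, and the rows carry RefSeq accessions. All columns of the table were used. Estimated counts assign reads shared by near-identical transcripts by a model, so paralogs and transcript models of a gene can exchange counts.

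Rows were matched by accession, ignoring the version, to a RefSeq gene table of GRCm38.p6, which gave names, gene class and positions. Of 107384 rows, 86714 matched a gene, and rows without a gene held between 9.27% and 43.5% of a library's counts, the most in IgG RIP, and stayed out of library sizes. Counts of protein-coding genes were summed per gene, rounded, filtered at 0.5 CPM in 3 libraries and scaled by TMM. Here edgeR 4.0.16 in R 4.3.3 was used (glmQLFit, glmQLFTest) with 1 mean per condition in a model of all 9 libraries. The common biological coefficient of variation was 0.221. Both CELF2-KI RIP comparisons share the CELF2-KI RIP libraries. Alternatives were DESeq2 1.42.0, other scalings, other filters, curated transcripts alone, rows of the same accession version, edgeR's glmTreat, a replicate block and leaving out each library in turn. Exact tests used scipy 1.17.1. The steps were tested on simulated data.

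Genes named are all tested catalytic subunits, subunits called against both controls, PP2A and calcineurin subunits and neural PP1 regulators from a list, the highest and lowest member of each role group and partner list over IgG RIP, and *Celf2*. Other members with a call, and *Ppp1r7*, *Ppp4r2*, *Ppp4r3b* *Fkbp1a* and the partner genes called against both controls, were added after their values were seen. The counts of catalytic and regulatory calls by scaling and the *Ppp3cb* to *Ppp3ca* ratio without a predicted model were also chosen after seeing the data. The members and lists were chosen with earlier results of these data known. No library was a copy of another, as replicates varied beyond counting error (chi-square per gene 12.2 to 46.0). Across 11532 genes, deviations from the condition mean correlated between same-numbered libraries at 0.185, 0.122 and 0.212 for CELF2-KI RIP and input, at -0.070, 0.039 and -0.009 for CELF2-KI RIP and IgG RIP, and at 0.086, 0.064 and 0.006 for IgG RIP and input. The values were highest for CELF2-KI RIP and input. Libraries of different number were not compared, so these values cannot decide which conditions the number pairs. Genes are not independent replicates.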

Additional observations from a re-analysis of the deposited data

How the results depend on the processing

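Of 47 calls of subunits, 9 stayed past the thresholds under each alternative that tested them. These were *Ppp1r11* and *Ppp1r15a* against both controls, *Ppp1ca* and *Ppp1r1a* over input, and *Ppp1r8*, *Ppp1r15b* and *Ppp6c* over IgG RIP, of which *Ppp6c* had no value with rows of the same accession version. The direction of the 47 calls held except for *Ppp1r12b* over input, which was -10.7 with curated transcripts alone, where all CELF2-KI RIPs were at 0, so that this value depends on the prior count and is no bound. Subunits higher over IgG RIP, 13 in the report, numbered 8 with upper-quartile scaling, 5 with library totals, 3 with glmTreat (which tests against 2-fold), 8 with curated transcripts alone and 7 with rows of the same accession version, an alternative chosen after seeing the data. Lower ones, 7 in the report, numbered 13 with library totals and 3 with glmTreat. Over input, 12 higher became 7 with DESeq2 size factors, the DESeq2 test or no filter, 5 with upper-quartile scaling or the same version, 1 with library totals and 0 with glmTreat, and 9 lower became 14 with upper-quartile scaling or the DESeq2 test, 18 with library totals and 5 with glmTreat. Between IgG RIP and input, 4 higher became 1 with glmTreat or the same version and 2 with curated transcripts, and 2 lower became 4 with DESeq2 size factors or library totals, 5 with the DESeq2 test, 0 with glmTreat or curated transcripts and 1 with the same version. Of the 7 subunits higher than both controls, the count was 4 with DESeq2 size factors, the DESeq2 test, no filter or curated transcripts, 2 with upper-quartile scaling, 0 with library totals or glmTreat and 3 with the same version, and the 6 lower ones became 11 with library totals and 2 with glmTreat. The median of all tested genes moved by -0.26 and -0.24 over IgG RIP and input with upper-quartile scaling and by -0.37 and -0.46 with library totals. The catalytic minus regulatory difference over IgG RIP was 0.40 with curated transcripts and 0.39 with the same version. The partner median, 0.52 over IgG RIP and 0.67 over input, was 0.45 and 0.53 with DESeq2 size factors and in the DESeq2 test, 0.26 and 0.43 with upper-quartile scaling, 0.16 and 0.21 with library totals, 0.40 and 0.54 with no filter, 0.40 and 0.55 with curated transcripts and 0.41 and 0.56 with the same version, and 0.03 between IgG RIP and input became -0.0396 with DESeq2 size factors, -0.0402 in the DESeq2 test, -0.0568 with library totals, -0.0162 with no filter and 0.10 with curated transcripts. The causes were not tested.

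Leaving out 1 library at a time gave 10 to 13 higher and 7 to 8 lower over IgG RIP, 7 to 13 and 8 to 12 over input, 3 to 4 and 1 to 3 between IgG RIP and input, and 4 to 7 and 5 to 7 against both controls. The lowest counts of 7 over input and 4 against both controls came without input replicate 2, and the 1 lower in IgG RIP without input replicate 3. The catalytic minus regulatory difference ranged from 0.64 to 0.85 over IgG RIP, 0.17 to 0.37 over input and -0.51 to -0.37 between IgG RIP and input, and the partner median from 0.42 to 0.58, 0.55 to 0.72 and 0.0189 to 0.10. With the replicate block, the counts stayed at 13 and 7 over IgG RIP, 12 and 9 over input and 7 and 6 against both controls. Between IgG RIP and input the block lost the call of *Ppp1r1c* (edgeR FDR 0.0177) and gained one for *Ppp1r12a*, higher in IgG RIP at 1.22 (edgeR FDR 0.00323). No other call of a subunit changed with it. Depth limits the RIP values of mRNAs under a few CPM, such as *Ppp1r3g*, *Ppp1r32* and *Ppp1r36*.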
